A study of Arabidopsis thaliana with 9 samples.

Results

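Among the genes expressed in Arabidopsis leaves before wounding, 84 had fallen to a small part of their level both 30 min and 60 min after it. They were chosen by their mean level in CPM, the count divided by the library total and multiplied by 1000000. A gene was kept if its mean before wounding was at least 5 CPM and its mean at each later time, with 0.5 CPM added to both means, was at most 0.3 of that level. Of 27206 genes in the count table, 11298 had at least 5 CPM before wounding and 88 met all these values. Of these 88, the clock genes CCA1, RVE1 and RVE8 and the wall enzyme gene XTH31 were left out by name. LHY was also named for leaving out, but its ratio at 30 min was 0.317. The fall at both times is how the genes were found, so it is described here and not tested.

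The plants were wild-type Col-0, the reference accession of Arabidopsis thaliana, grown in soil under short days. Polyadenylated RNA was sequenced from leaves taken before wounding and from leaves wounded 30 min or 60 min earlier, each with 3 biological replicates. No label gives a time of day, and no unwounded leaves stand beside those of 30 and 60 min, so wounding and time of day cannot be told apart. How leaves were wounded, which leaf was taken and whether plants were pooled are also not given in the sources used here.

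Leaves that are growing keep their cell walls extensible. Expansins loosen the wall, SAUR proteins promote cell expansion downstream of auxin, and brassinosteroids act on the same process. In daylight, the transcription factor HY5, its homologue HYH and the B-box zinc finger proteins adjust pigments, photoprotection and growth. Leaves of the cabbage family also reduce sulfate to make cysteine and methionine, and elongated methionine is the precursor of the aliphatic glucosinolates, which are defence compounds.

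Library totals were 14300929 counts in 30 min replicate 1 and 22072126 to 22970735 in the other libraries. The lowest count of any of the 84 genes in a library from before wounding was 89, and 4 genes had at most 3 counts in at least 1 library after wounding. The leaf label was checked against marker genes. Summed over the mesophyll markers, the level was 98544 to 100431 CPM before wounding, 76759 to 95734 CPM at 30 min and 69770 to 89424 CPM at 60 min. The guard cell markers summed to 377 to 422, 340 to 358 and 295 to 316 CPM at these times, and the epidermis markers to 176 to 212, 156 to 205 and 183 to 188 CPM. The phloem and vasculature markers summed to 130 to 173, 145 to 188 and 148 to 157 CPM. Of 5 tested mesophyll markers, 1 was called lower than before wounding at 30 min and 3 at 60 min, with none higher. Of 5 tested phloem and vasculature markers, 1 was called lower and 1 higher at each time. Within the guard cell and epidermis lists the genes moved differently. Of 4 tested guard cell markers, MYB60 and FAMA were called higher than before wounding at both times and BCA4, which carries most of the sum, lower at 60 min. Of 4 tested epidermis markers, PDF2 was called lower at both times and no other was called (edgeR quasi-likelihood, Benjamini-Hochberg adjusted p under 0.05). Root markers reached at most 27.7 CPM in any library, those of flower and seed at most 0.629 CPM, with SESA3 at 0 throughout, and those of trichomes at most 3.37 CPM, with GL1 at 0 throughout. None of the 84 genes is in a marker list, and the part of these shifts in the values below was not tested. In whole leaves, fewer cells of a type and less RNA per cell cannot be told apart.

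The 84 genes spanned low to high expression. Their mean before wounding ran from 5.11 to 340.5 CPM with a median of 15.4 CPM, and 21 genes had at least 50 CPM, 42 had 10 to 50 CPM and 21 had 5 to 10 CPM. The median was 2.97 CPM at 30 min and 2.95 CPM at 60 min. At 30 min a gene had between 4.64% and 28.1% of its level before wounding left, with a median of 18.9%, and at 60 min between 3.399% and 28.8%, with a median of 17.7%. With the added 0.5 CPM, the median ratio was 0.215 at 30 min and 0.213 at 60 min. The ratio was at most 0.15 in 13 genes at 30 min, in 17 at 60 min and in 11 at both times.

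Added together, the 84 genes held 3660, 3880 and 3597 CPM in the 3 libraries from before wounding, 739.7, 727.5 and 776.8 CPM at 30 min, and 668.9, 756.7 and 584.2 CPM at 60 min. The 6 libraries taken after wounding were all far below the 3 taken before it, and those of 30 and 60 min overlapped. Gene by gene, all 84 had every library from before wounding above all 6 later ones, against 15.5% of the genes with at least 5 CPM before wounding. All 84 were called lower than before wounding at both times by the edgeR quasi-likelihood test over 17622 genes, where 13.4% of tested genes were called lower at 30 min and 15.3% at 60 min. Nothing is read from these counts, since the rule used the same values.

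**Figure D1:**
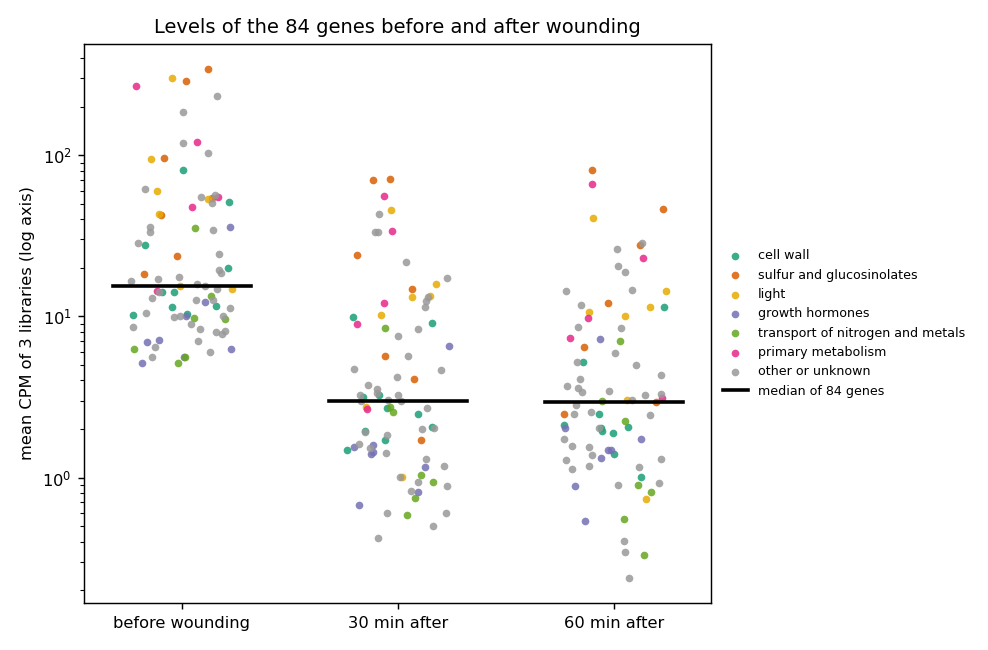
Mean CPM of each of the 84 genes before wounding, 30 min after and 60 min after, on a log axis, with 1 point per gene coloured by the role read from its annotation and a bar at the median. The median is 15.4 CPM before wounding, 2.97 CPM at 30 min and 2.95 CPM at 60 min.

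The genes nearest the limit were AT1G74875, CSLB03 and NRT1.5 inside it, with a larger ratio of 0.294, 0.298 and 0.299, and AT5G02830, SAUR29 and IAGLU outside it, with 0.301, 0.303 and 0.305. SAUR29, for example, had 9.33 CPM before wounding, 2.48 CPM at 30 min and 1.08 CPM at 60 min.

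Since the genes fell together, the DNA before their starts was read from the TAIR10.1 assembly with its RefSeq annotation. The submitters' processing notes name the build TAIR10, and the count table gives gene identifiers only. The sequences of 5 genes are shown as examples of the wall, sulfur, glucosinolate and light genes described below. Each is the 200 bases before the annotated gene start, on the gene's strand, with no other gene annotated there. Capitals mark a G-box (CACGTG), its ACGTG core alone, a PIF E-box (CACATG or CATGTG), an I-box (GATAAG or CTTATC) or a TATA box (TATAAA or TTTATA). EXPB1 (chr2:8940633-8940832, plus strand) had none of them.
EXPB1: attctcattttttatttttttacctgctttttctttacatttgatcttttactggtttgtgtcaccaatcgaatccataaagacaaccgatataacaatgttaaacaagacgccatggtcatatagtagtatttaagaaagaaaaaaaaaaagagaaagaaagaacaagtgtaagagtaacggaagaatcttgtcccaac
APR1 (chr4:2324678-2324877, plus strand) had an E-box whose first base lay 122 bases before the start.
APR1: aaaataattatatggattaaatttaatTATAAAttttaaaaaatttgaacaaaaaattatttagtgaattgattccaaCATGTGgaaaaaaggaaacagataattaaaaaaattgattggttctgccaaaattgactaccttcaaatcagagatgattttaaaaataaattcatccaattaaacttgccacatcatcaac
CYP83A1 (chr4:7992430-7992629, minus strand) had a G-box 43 bases before the start.
CYP83A1: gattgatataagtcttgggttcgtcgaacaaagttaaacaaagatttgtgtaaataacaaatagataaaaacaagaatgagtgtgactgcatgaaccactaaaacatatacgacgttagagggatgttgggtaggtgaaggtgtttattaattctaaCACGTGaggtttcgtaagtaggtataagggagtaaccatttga
ELIP1 (chr3:8085670-8085869, minus strand) had a G-box 66 bases and an I-box 17 bases before the start.
ELIP1: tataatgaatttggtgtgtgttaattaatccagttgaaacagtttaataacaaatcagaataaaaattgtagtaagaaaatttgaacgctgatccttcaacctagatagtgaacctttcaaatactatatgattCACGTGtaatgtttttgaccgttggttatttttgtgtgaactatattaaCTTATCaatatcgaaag
HYH (chr3:6023644-6023843, plus strand) had an ACGTG core 55 bases and a TATA box 46 bases before the start.
HYH: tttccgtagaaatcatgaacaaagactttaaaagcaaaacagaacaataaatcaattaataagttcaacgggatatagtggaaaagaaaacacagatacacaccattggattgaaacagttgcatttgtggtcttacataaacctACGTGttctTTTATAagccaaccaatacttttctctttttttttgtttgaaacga

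These elements were not shared by the group. Windows ran from 250 bases before to 50 bases after the gene start and were searched on both strands. A G-box was found in 6 of the 84 genes (7.14%), against 7.79% of 26718 windows of genes in the count table, expressed or not. Of 17610 windows of tested genes, 9.03% held it. The shares below are set against the 26718 windows. The ACGTG core, which every G-box contains, was found in 32.1% against 26.9%, and the PIF E-box, bound by phytochrome interacting factors, in 15.5% against 13.0%. The evening element of the clock, AAAATATCT, was found in 2.38% against 2.86%, and the CCA1-binding site, AAAAATCT, in 8.33% against 7.95%. The I-box was found in 20.2% against 14.6% and the TATA box in 52.4% against 52.6%.

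The elements below had a smaller share in the 84 windows than in all, some by little and some on few windows. The CAMTA box, CGCGT, known from genes induced early by stress, was found in 2 of the 84 windows (2.38%), against 8.75%. The core of the CRT element of cold-induced genes, CCGAC, was found in 6 (7.14%), against 14.97%. For the telobox of ribosomal protein genes, AAACCCTA, it was 2 (2.38%), against 6.16%. In the windows of tested genes the CAMTA box was found in 9.82%, the CRT core in 16.6% and the telobox in 5.53%. The auxin element TGTCTC was found in 11.9% against 14.1%, the W-box core TTGAC in 46.4% against 50.5% and the core of the cytokinin response regulators' site, AGATT, in 60.7% against 69.6%. These shares are descriptions of letters in a short window, with no test.

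The 84 genes had few exons. In the longest transcript, 20 genes (23.8%) had 1 exon, against 10.7% of the genes with at least 5 CPM before wounding, and 4 genes (4.76%) had over 10, against 19.2%. The median was 3 exons against 5 exons, and the median transcript length was 1447.5 bases against 1818 bases. The GC content was alike, with a median of 40.9% against 41.6%.

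**Figure D2:**
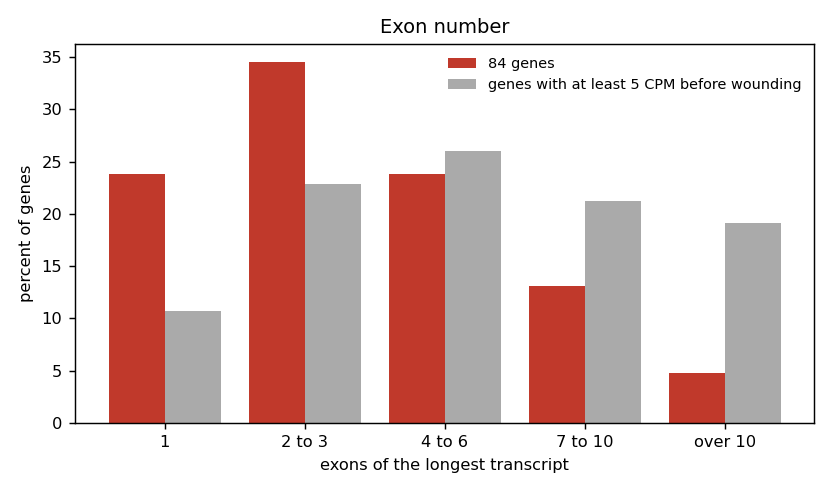
Share of genes, in percent, by the number of exons in the longest transcript, for the 84 genes (left bar of each pair) and for all genes with at least 5 CPM before wounding (right bar). Genes with 1 to 3 exons take a larger share of the 84 genes, and genes with over 10 exons take 4.76% of them against 19.2%.

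Genes of the cell wall formed a group of 10, sorted by their annotation after the values had been seen. They are 4 expansins, 3 pectin lyase-like or pectate lyase genes, which act on pectin, 1 inhibitor of the invertase and pectin methylesterase family, and the cellulose synthase-like genes CSLB03 and CSLB04. Genes outside the 84 were not sorted in this way. The sizes of this and the later groups therefore have no share over all genes beside them. EXPA8 (AT2G40610), an alpha-expansin, was the most abundant of the 10, with 72.0, 84.9 and 87.0 CPM before wounding, 5.17, 8.63 and 13.6 CPM at 30 min, and 6.51, 6.21 and 2.80 CPM at 60 min. Its 6 later libraries lay far below the earlier 3, and 6.36% of its level was left at 60 min. EXPB1 (AT2G20750), a beta-expansin, had 25.9, 31.2 and 25.6 CPM before wounding, 1.40, 1.68 and 3.08 CPM at 30 min, and 0.808, 0.997 and 1.20 CPM at 60 min. At 60 min 3.63% of its level was left, and its ratio of 0.0535 was the lowest at that time among all 84 genes. The 60 min libraries of EXPB1 were all below its 30 min libraries, while those of EXPA8 overlapped.

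EXPB3 (AT4G28250), another beta-expansin, averaged 20.02 ± 2.25 CPM before wounding, 3.15 ± 0.559 CPM at 30 min and 2.48 ± 0.411 CPM at 60 min (SD, n = 3 libraries here and below). EXPA11 (AT1G20190) averaged 14.1 ± 1.69, 3.27 ± 1.18 and 2.04 ± 1.15 CPM at these times. Both kept their earlier and later libraries apart. The pectin lyase-like gene AT5G63180 kept more of its level than these at 60 min, with 51.3 ± 5.41 CPM before wounding, 9.97 ± 1.38 CPM at 30 min and 11.4 ± 1.78 CPM at 60 min.

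CSLB03 and CSLB04 lie side by side on chromosome 2, on the same strand, 971 bases apart with no gene between them. CSLB03 had 12.6, 10.08 and 8.19 CPM before wounding, 2.24, 3.49 and 2.41 CPM at 30 min, and 1.44, 3.35 and 1.56 CPM at 60 min. CSLB04 had 13.0, 10.7 and 11.3 CPM before wounding, 2.098, 2.34 and 3.03 CPM at 30 min, and 2.15, 1.90 and 1.78 CPM at 60 min. In both genes the later libraries lay below all earlier ones, and the 30 and 60 min libraries overlapped. They were the only pair among the 84 genes with no other gene between them.

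Other expansins did not all follow. Of 17 further tested expansin genes, 6 were lower and 3 higher than before wounding at 30 min, and 6 were lower and 2 higher at 60 min (edgeR quasi-likelihood, Benjamini-Hochberg adjusted p under 0.05). With library size as the only scaling these were 4 and 3 at 30 min and 4 and 4 at 60 min. EXPA1, the most abundant of them, fell less far, to 52.7 ± 14.9 CPM at 30 min and 59.2 ± 4.40 CPM at 60 min, against 149 ± 11.5 CPM before wounding. EXLA2, an expansin-like gene, rose to 94.4 ± 20.8 CPM at 30 min and 89.3 ± 35.1 CPM at 60 min, against 12.6 ± 1.39 CPM before wounding. EXPA16 rose to 6.32 ± 2.68 CPM and 8.99 ± 1.37 CPM, against 0.396 ± 0.0484 CPM. Of 22 tested XTH genes, whose enzymes cut and rejoin wall xyloglucan, 4 were lower and 9 higher at 30 min, and 5 were lower and 9 higher at 60 min. XTH31, which met the values of the rule and was left out by name, is counted among these 22. Over all 17622 tested genes, 13.4% were called lower and 14.5% higher at 30 min, and 15.3% lower and 17.1% higher at 60 min. The same shares stand beside the counts of the gene lists below.

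**Figure D3:**
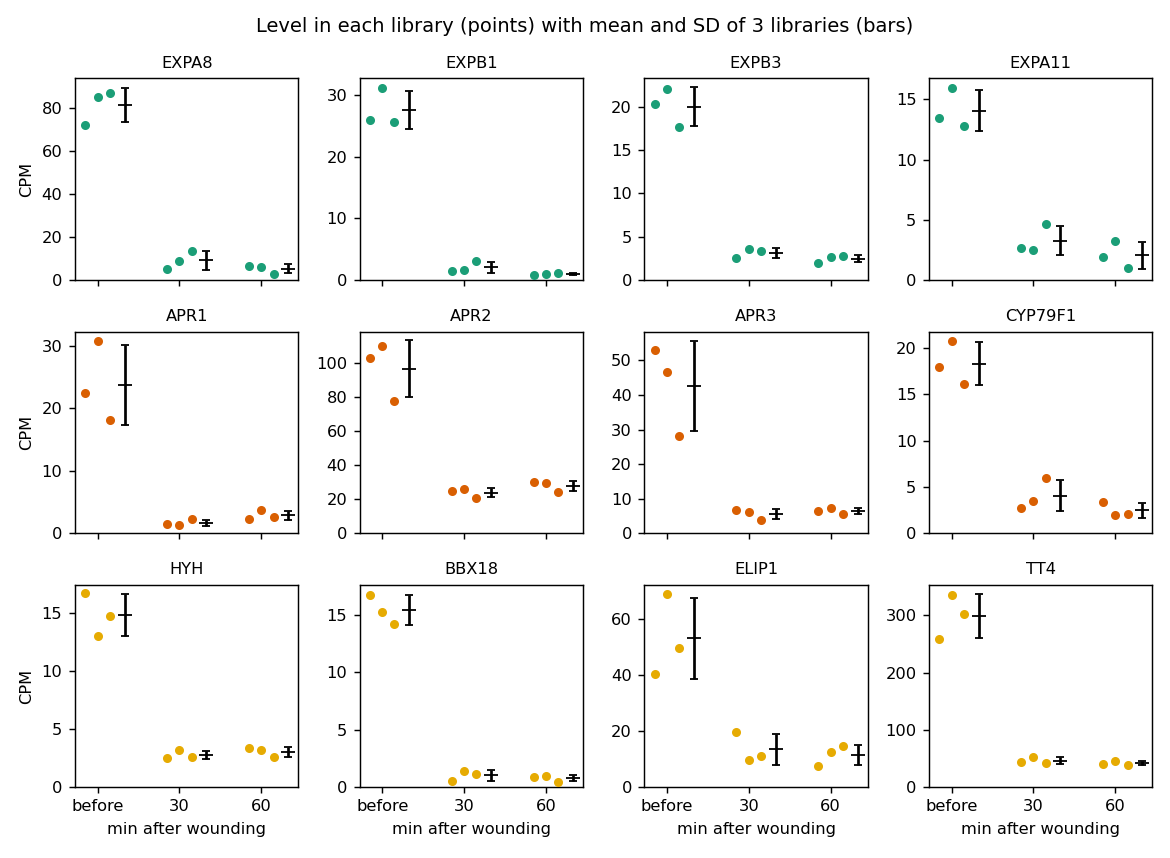
CPM in each library (points) of 12 of the genes (EXPA8, EXPB1, EXPB3, EXPA11, APR1, APR2, APR3, CYP79F1, HYH, BBX18, ELIP1 and TT4) before wounding, 30 min and 60 min after, with the mean and SD of 3 libraries beside them, and with green for cell wall, orange for sulfur and glucosinolate and yellow for light genes. In all 12 genes the 3 libraries from before wounding lie above the 6 later ones.

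Genes of sulfate reduction, methionine and glucosinolates formed a group of 7. All 3 genes of adenosine phosphosulfate reductase, which reduces activated sulfate to sulfite, were among them. APR2 (AT1G62180) had 103, 110 and 77.4 CPM before wounding, 25.1, 26.0 and 20.8 CPM at 30 min, and 30.0, 29.3 and 24.2 CPM at 60 min. APR3 (AT4G21990) had 53.1, 46.7 and 28.0 CPM before wounding, 6.64, 6.28 and 4.01 CPM at 30 min, and 6.51, 7.29 and 5.61 CPM at 60 min. APR1 (AT4G04610) had 22.4, 30.8 and 18.2 CPM before wounding, 1.54, 1.37 and 2.23 CPM at 30 min, and 2.38, 3.76 and 2.62 CPM at 60 min. APR1 fell furthest, to 7.20% of its earlier level at 30 min, and its 60 min libraries lay above all those of 30 min, by 0.65 ± 0.26 on the log2 scale (SE), which did not pass the test (edgeR quasi-likelihood, Benjamini-Hochberg adjusted p = 0.304). All 3 APR genes overlap a gene on the opposite strand, and in APR2 only 51.4% of the stretches of 50 exon bases occur in no other gene. In APR1 and APR3 all such stretches (100%) occur in no other gene. The values, those of APR2 above all, are uncertain in that respect, since the use of strand in counting is not given in the sources used here.

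Of the other tested genes of a list of sulfur-status genes, LSU2 and SHM7 were called lower at both times and AT5G26220 and ATSDI1, which was below 1 CPM on average at each time, at neither. The name SDI2 of that list matched no gene symbol or synonym in the RefSeq annotation, so no gene was counted under it. Its gene may still be among those described here under another name, which the annotation used does not settle. SHM7 had 8.19 ± 0.644 CPM at 30 min and 10.6 ± 1.71 CPM at 60 min, against 27.3 ± 7.37 CPM before wounding.

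MS2 (AT3G03780), a methionine synthase, was the most abundant of the 84 genes. It had 310, 367 and 345 CPM before wounding, 85.9, 63.5 and 61.7 CPM at 30 min, and 42.7, 49.2 and 47.2 CPM at 60 min. The 3 times did not overlap, with the lowest values at 60 min. CYP79F1 (AT1G16410), the first enzyme acting on elongated methionine in aliphatic glucosinolate synthesis, averaged 18.3 ± 2.33 CPM before wounding, 4.08 ± 1.69 CPM at 30 min and 2.48 ± 0.806 CPM at 60 min. CYP83A1 (AT4G13770), which catalyses the next step, averaged 53.9 ± 9.29, 14.9 ± 5.70 and 12.03 ± 2.16 CPM. ESM1 (AT3G14210), which affects the products released when glucosinolates break down, kept more than most of the 84 genes, with 290 ± 24.2 CPM before wounding, 71.4 ± 23.7 CPM at 30 min and 81.2 ± 19.4 CPM at 60 min.

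Genes that act in light responses formed a group of 7. TT4 (AT5G13930), the chalcone synthase at the entry to flavonoid synthesis, had 259, 336 and 303 CPM before wounding, 43.5, 52.6 and 41.1 CPM at 30 min, and 40.7, 44.7 and 37.5 CPM at 60 min. Per kilobase of transcript it was the highest of the 84 genes before wounding, at 176 CPM, followed by AT4G00165 at 163 and ESM1 at 149. Its earlier libraries lay far above the later ones, which overlapped between 30 and 60 min.

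COL2 (AT3G02380), a CONSTANS-like B-box protein, had 96.3, 95.8 and 92.9 CPM before wounding, 16.2, 18.01 and 13.7 CPM at 30 min, and 14.05, 17.4 and 11.5 CPM at 60 min. BBX18 (AT2G21320) had 16.8, 15.3 and 14.2 CPM before wounding, 0.489, 1.42 and 1.11 CPM at 30 min, and 0.853, 0.906 and 0.445 CPM at 60 min. HYH (AT3G17609) had 16.7, 13.0 and 14.7 CPM before wounding, 2.52, 3.14 and 2.54 CPM at 30 min, and 3.37, 3.171 and 2.54 CPM at 60 min. All 3 regulators were far lower in each later library, and BBX18 fell furthest, to 4.76% of its earlier level at 60 min.

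SPA3 (AT3G15354), which works with the ubiquitin ligase COP1 in removing light-signalling factors, averaged 43.2 ± 5.86 CPM before wounding, 10.2 ± 2.67 CPM at 30 min and 9.995 ± 2.62 CPM at 60 min. The early light-induced genes ELIP1 (AT3G22840) and ELIP2 (AT4G14690) encode thylakoid proteins linked to photoprotection. ELIP1 had 40.5, 69.1 and 49.8 CPM before wounding, 19.7, 9.64 and 11.0 CPM at 30 min, and 7.31, 12.3 and 14.5 CPM at 60 min. ELIP2 had 54.2, 70.4 and 54.5 CPM before wounding, 19.7, 10.2 and 9.50 CPM at 30 min, and 11.0, 8.06 and 12.8 CPM at 60 min. In both, 30 min replicate 1, the shallowest library, was the highest of the later libraries and still below all earlier ones. COL2, SPA3 and TT4 overlap a gene on the opposite strand.

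Among 25 other tested B-box genes, with HY5, 11 were lower and 2 higher at 30 min, and 9 were lower and 3 higher at 60 min (edgeR quasi-likelihood, Benjamini-Hochberg adjusted p under 0.05). HY5 itself, at a low level, was 1.38 ± 0.805 CPM at 30 min and 1.38 ± 0.490 CPM at 60 min, against 3.31 ± 0.639 CPM before wounding, and was called lower at both times. BBX13 rose to 14.5 ± 3.88 and 14.2 ± 3.51 CPM, against 2.29 ± 0.371 CPM. The most abundant gene of the list, COL3, had 264 ± 5.28 CPM and 262 ± 23.9 CPM, against 289.9 ± 14.05 CPM, and passed the test at neither time. Of 11 other tested clock-output genes, 5 were lower at 30 min and 4 at 60 min, and none was higher at either time. The gene CDF1, which encodes a repressor of CONSTANS, was at 8.39 ± 0.951 CPM and 10.9 ± 2.17 CPM, against 31.8 ± 3.87 CPM.

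Genes of growth hormones formed a group of 8. KDR (AT1G26945), a small helix-loop-helix protein that counters growth-repressing relatives, had 27.6, 41.1 and 38.2 CPM before wounding, 6.08, 4.56 and 9.05 CPM at 30 min, and 6.64, 8.56 and 6.36 CPM at 60 min. BEE3 (AT1G73830), a transcription factor induced by brassinosteroids, averaged 10.09 ± 1.54, 1.59 ± 0.748 and 2.03 ± 0.951 CPM at these times. BAS1 (AT2G26710), which inactivates brassinosteroids, averaged 6.89 ± 1.12, 1.44 ± 0.163 and 1.32 ± 0.471 CPM. Both genes were chosen for a low level at both later times, so nothing is read from their falling together. CYP707A2 (AT2G29090), which breaks down abscisic acid, averaged 12.3 ± 1.33 CPM before wounding, 1.39 ± 0.371 CPM at 30 min and 1.74 ± 0.919 CPM at 60 min. The vascular peptide gene CLE44 averaged 5.56 ± 1.09, 0.809 ± 0.210 and 0.885 ± 0.390 CPM.

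The SAUR genes among the 84 were weakly expressed. AT1G29500 averaged 7.12 ± 2.29 CPM before wounding, 1.54 ± 0.879 CPM at 30 min and 1.48 ± 0.743 CPM at 60 min. AT5G18030 averaged 6.28 ± 1.78, 1.16 ± 0.689 and 1.48 ± 0.233 CPM, and SAUR24 (AT5G18080) 5.11 ± 0.409, 0.679 ± 0.140 and 0.540 ± 0.373 CPM. AT5G18030 and SAUR24 lie on the same strand of chromosome 5 with 6 genes between them. Many others of the family were lower too. Of 39 other tested SAUR genes, 21 were lower and 4 higher than before wounding at 30 min, and 21 were lower and 5 higher at 60 min. Their median log2 change was −0.99 at 30 min and −1.39 at 60 min, where that of all tested genes was 0.02 and 0.06.

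Brassinosteroid genes outside the 84 were split, with 3 lower and 3 higher of 9 at 30 min, and 2 lower and 4 higher at 60 min. BEE2 fell to 35.4 ± 4.44 CPM at 30 min and 42.8 ± 4.40 CPM at 60 min, against 101 ± 8.87 CPM before wounding. The synthesis gene CPD rose to 138 ± 18.9 CPM and 163 ± 32.8 CPM, against 69.1 ± 3.49 CPM. Of 10 other tested targets of shade and phytochrome interacting factors, 2 were lower and 1 higher at 30 min, and 3 were lower and 2 higher at 60 min.

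**Figure D4:**
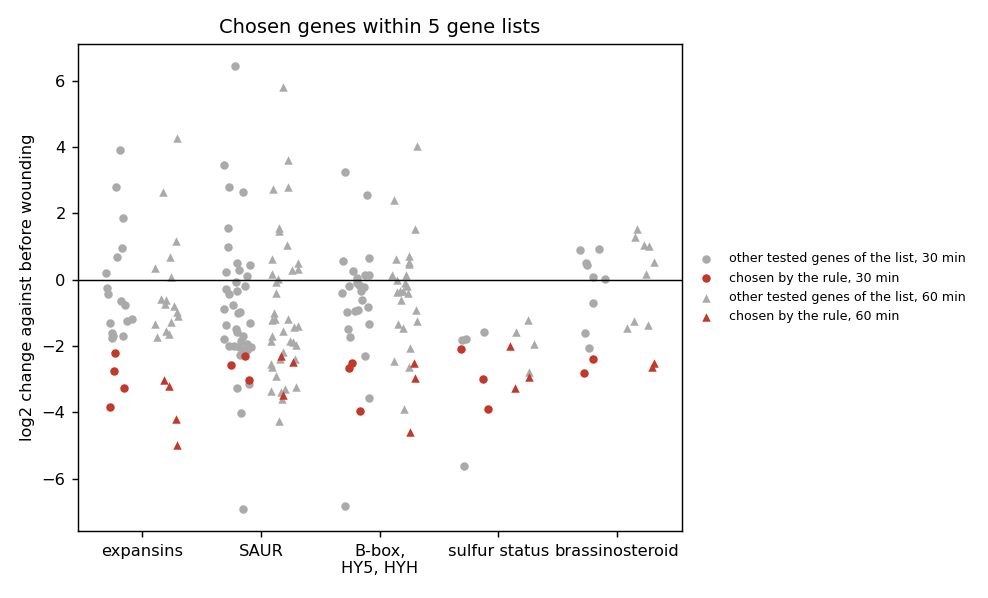
Fitted log2 change against before wounding (edgeR) of every tested gene of 5 gene lists, at 30 min (circles) and 60 min (triangles), with the genes of the 84 in red and the others in grey. The red points lie low because of the rule, while the grey points spread to both sides of 0 in every list except sulfur status, whose 4 other tested genes are all below 0.

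The last groups were transporters and enzymes of primary metabolism, sorted like the others after their values were seen. Of the 7 transport genes, AMT1;2 (AT1G64780), an ammonium transporter, was the most abundant, with 34.8, 36 and 35.2 CPM before wounding, 7.83, 10.9 and 6.55 CPM at 30 min, and 6.15, 6.39 and 8.68 CPM at 60 min. GDU4 (AT2G24762), of a family that promotes amino acid export, had 7.57, 9.90 and 11.6 CPM before wounding, 0.909, 0.442 and 0.892 CPM at 30 min, and 0.494, 0.317 and 0.178 CPM at 60 min. With 3.399% left at 60 min, GDU4 had the smallest share left of all 84 genes, on only 4 to 11 counts in a 60 min library. The nitrate transporter NRT1.5, the zinc pump HMA2, the nicotianamine synthase NAS3 and the transporters UMAMIT12 and UMAMIT44, of an amino acid transporter family, had means of 5.13 to 13.4 CPM before wounding. None of 12 tested genes of nitrate assimilation and signalling was among the 84, and 6 of them were lower at 30 min and 4 at 60 min, with none higher, although with library size as the only scaling 2 were higher at 60 min.

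VTC2 (AT4G26850), which catalyses a committed step of ascorbate synthesis, had 279, 264 and 257 CPM before wounding, 49.5, 61.3 and 55.7 CPM at 30 min, and 68.3, 77.1 and 53.3 CPM at 60 min. Its later libraries overlapped with each other and lay far below the earlier ones. ATSPS4F (AT4G10120), a sucrose-phosphate synthase, had 128, 115 and 120 CPM before wounding, 32.6, 35.3 and 33.4 CPM at 30 min, and 22.6, 23.4 and 22.8 CPM at 60 min. The 3 times of ATSPS4F did not overlap, and an antisense neighbour shares part of its position. The oxidoreductase SQP1 had 15.5% and the purple acid phosphatase PAP8 21.6% of the earlier level left at 60 min.

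The other 40 genes had mixed or unknown roles, and 9 of the 84 are annotated only as uncharacterized proteins. AT1G55960, annotated as a polyketide cyclase and lipid transport protein, had 252, 217 and 232 CPM before wounding, 32.03, 34.4 and 34 CPM at 30 min, and 20.3, 20.4 and 20.7 CPM at 60 min. Its libraries within each later time were close together, and the times did not overlap. AT1G13650, an uncharacterized protein, had 187, 211 and 156 CPM before wounding, 30.4, 48.9 and 50.5 CPM at 30 min, and 25.04, 36.4 and 24.7 CPM at 60 min. AT4G00165, of the lipid transfer and albumin superfamily, averaged 118 ± 12.5, 33.2 ± 1.41 and 26.1 ± 5.92 CPM, and HBP1 (AT1G17100), of the SOUL heme-binding family, 103 ± 8.39, 21.7 ± 1.44 and 18.7 ± 2.04 CPM. AT4G00165 overlaps a gene on the opposite strand, and 47.3% of its stretches of 50 exon bases occur in no other gene.

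Among the deepest falls were AT2G27420, annotated as a cysteine proteinase, with 15.4 ± 2.08 CPM before wounding, 1.30 ± 0.514 CPM at 30 min and 0.899 ± 0.298 CPM at 60 min, and LEA3 (AT1G02820), of a late embryogenesis abundant family, with 35.9 ± 1.92, 5.69 ± 1.55 and 3.599 ± 1.24 CPM. AT1G04770, annotated as a tetratricopeptide repeat protein, had the lowest share left at 30 min, on only 8 to 14 counts in a 30 min library. It had 19.9, 10.3 and 8.95 CPM before wounding, 0.839, 0.354 and 0.624 CPM at 30 min, and 0.942, 1.68 and 1.29 CPM at 60 min. Replicate 1 was the highest of its earlier libraries, and its 60 min libraries lay above all those of 30 min. This gene overlaps another on the opposite strand, and 76.7% of its stretches of 50 exon bases occur in no other gene.

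The rule did not use the difference between 60 and 30 min, but it held the level at both times under the same limit, so a gene that recovered by 60 min or fell only after 30 min could not be among the 84. The counts below describe the group and are set beside genes that were not selected in this way. At 60 min against 30 min, 3 of the 84 genes were lower and none was higher (edgeR quasi-likelihood, Benjamini-Hochberg adjusted p under 0.05), where 1.3% of 17622 tested genes were called lower, 0.721% higher and 2.02% in either direction. At an unadjusted p under 0.05 there were 18 of the 84 genes (21.4%), against 12.5% of tested genes, and DESeq2 called 6 lower and none higher. A missing call does not show that a gene stayed level.

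AT1G55960 fell further, to 20.5 ± 0.204 CPM at 60 min, against 33.5 ± 1.26 CPM at 30 min, a log2 change of −0.82 ± 0.14 (SE, edgeR adjusted p = 0.0067). ATSPS4F fell to 22.9 ± 0.412 CPM, against 33.8 ± 1.40 CPM, a log2 change of −0.67 ± 0.14 (edgeR adjusted p = 0.0199). MS2 fell to 46.4 ± 3.299 CPM, against 70.4 ± 13.5 CPM, a log2 change of −0.71 ± 0.17 (edgeR adjusted p = 0.0430). In each of the 3 genes all 60 min libraries lay below all 30 min libraries. AT1G55960 passed in all 15 refits of this comparison, with adjusted p between 5.39e-06 and 0.0380. ATSPS4F missed the threshold in 6 of them, among these the fits without 30 min replicate 1 or 2 and without 60 min replicate 1 or 2, with adjusted p between 0.000536 and 0.0950. MS2 missed it in 9, among these the fits without replicate 2 or 3 from before wounding, without 30 min replicate 1 or 2 and without 60 min replicate 1 or 2, with adjusted p between 0.00307 and 0.201.

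The log2 change at 60 min against 30 min was below 0 in 52 of the 84 genes and above 0 in 32. The number below 0 was between 47 and 63 in 15 refits, with 47 when library size was the only scaling and 63 without 30 min replicate 3. Its median was −0.21, against 0.02 over all tested genes, of which 47.1% were below 0. It ran from −1.24 ± 0.45 in GDU4 to 1.04 ± 0.40 in AT1G04770 (SE), neither of which passed the test (edgeR adjusted p = 0.223 and 0.268). EXPB1, at −1.15 ± 0.29, had an edgeR adjusted p of 0.0653. A change of less than 1 on the log2 scale was seen in 80 of the 84 genes (95.2%), against 98.4% of genes with at least 5 CPM before wounding. By role, 7 of 10 wall genes, 6 of 7 light genes and 6 of 7 transport genes had a value below 0, against 3 of 7 sulfur and glucosinolate genes and 3 of 8 hormone genes, counts that were not tested against each other.

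**Figure D5:**
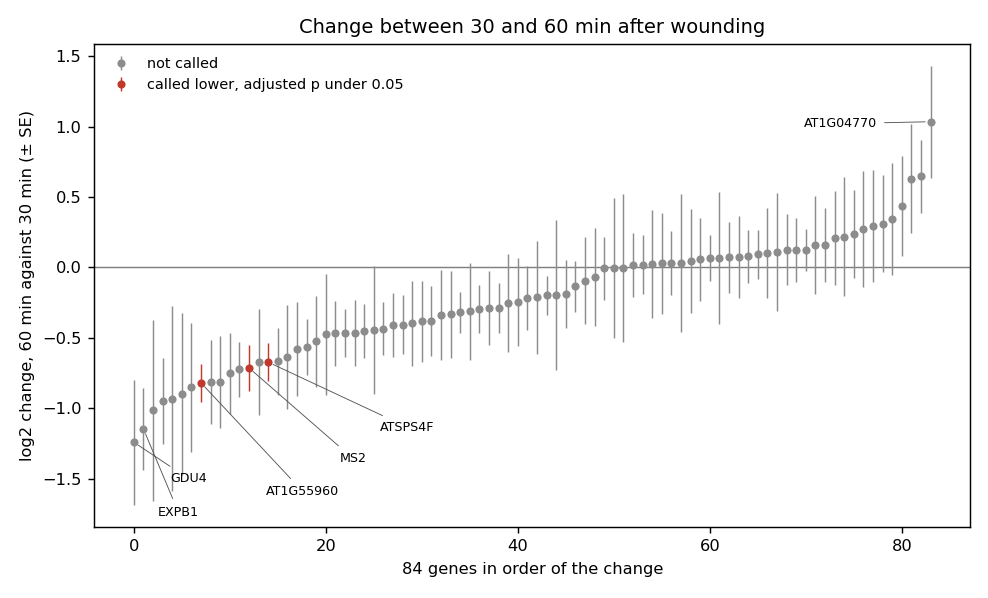
Log2 change at 60 min against 30 min with its SE (edgeR) for the 84 genes in order of the change, with the genes called lower at an adjusted p under 0.05 in red. The changes run from −1.24 in GDU4 to 1.04 in AT1G04770, 52 of 84 are below 0, and AT1G55960, MS2 and ATSPS4F are the 3 called.

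The spread between libraries of a time was wider after wounding, when the levels of these genes were also lower. The median coefficient of variation among the 84 genes was 13.3% before wounding, 30.0% at 30 min and 28.8% at 60 min, against 11.95%, 15.8% and 15.7% for genes with at least 5 CPM before wounding, which were not matched to the 84 for their level after it. At 60 min, 48 of the 84 genes were highest in replicate 2 and 49 were lowest in replicate 3. Replicate 2 was also the highest of the 3 for 59.0%, and replicate 3 the lowest for 47.9%, of genes with at least 5 CPM before wounding. In all, 18 of the 84 genes overlap an annotated gene on the opposite strand, and in 9 fewer than 90% of the stretches of 50 exon bases are found in no other gene.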

How the data were processed

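Per the labels, 9 leaf samples in 3 groups of 3 biological replicates were sequenced from polyadenylated RNA with a TruSeq kit. The deposited file is a table of raw counts (whole numbers, not normalized by the authors). The submitters' processing notes name FastQC 0.11.8, Trimmomatic 0.36, HISAT2 2.2.0, featureCounts and the build TAIR10. The annotation, the strand setting and the read length are not given in the sources used here. Columns were matched to samples by library name.

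CPM is the count divided by the column total. The fit used edgeR 4.0.16 in R 4.3.3 (TMM factors, filterByExpr, glmQLFit and glmQLFTest) on all 9 samples, with 17622 genes tested, all 84 chosen genes among them, and Benjamini-Hochberg adjustment over all tested genes, two-sided. The scripts were tested on simulated data. An SE is the log2 change, without its sign, over the root of F. Alternatives were DESeq2 1.42.0, other scalings, no filter, a stricter threshold of 0.01, a replicate block, the 30 and 60 min libraries alone, each library left out, and other settings of the rule. Those of the median ratio were chosen after seeing the data. Gene names, exons and sequences came from TAIR10.1 (RefSeq), which held all 84 genes.

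The genes, the gene lists and the roles were chosen with earlier results of these data known. Named with values were the 12 most abundant genes before wounding, the 6 with the lowest ratio at 60 min among those with at least 10 CPM before wounding, those called between 30 and 60 min, those in a gene list, those nearest the limit and adjacent pairs. Others were named after their values were seen. Further lists that held none of the 84 genes are not described, apart from the XTH and nitrogen genes. P-values weigh a difference between groups against the spread between the libraries within groups.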

Additional observations from a re-analysis of the deposited data

Results flagged for a closer look

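In 3 of the 84 genes the change by 60 min differed from the change by 30 min in a test of that difference (edgeR quasi-likelihood, Benjamini-Hochberg adjusted over 17622 genes), and all 3 were lower at 60 min. The log2 difference was −0.82 in AT1G55960 (adjusted p = 0.0067), −0.67 in ATSPS4F (adjusted p = 0.0199) and −0.71 in MS2 (adjusted p = 0.0430), each lower in 3 of 3 libraries at 60 min than in any at 30 min. This is the comparison of 60 min against 30 min given above, with the same p-values. The 3 libraries from before wounding enter both changes, so their level cancels in the difference. Of all 17622 tested genes, 2.02% were called in either direction, against 3.57% of the 84. The rule held the level at both times under the same limit, so these counts only describe the group. No group held 4 or more libraries, so libraries far from the others of their group were not tested for.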

How the results depend on the processing

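The count of genes lower at 60 min than at 30 min, 3 in all and none higher, was small and moved with the processing. It was 5 with no filter on low counts, 6 with DESeq2, 1 with the 30 and 60 min libraries alone and 1 at an adjusted p under 0.01. It was 2 with library size as the only scaling and 3 with the size factors of DESeq2, and between 1 and 6 with 1 library left out, with 1 without 30 min replicate 2, without 60 min replicate 1 or without 60 min replicate 2, and 6 without 60 min replicate 3. No gene of the 84 was called higher under any of these. Replicate numbers did not visibly pair the samples. Correlations of deviations between samples of the same number ran from −0.365 to 0.156 over 9 pairs. Between samples of different numbers they ran from −0.300 to 0.342 over 18 pairs. Deviations within a group of 3 are tied to each other, so these values cannot settle whether samples were paired. With the replicate number as a replicate block 1 gene was called.

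The rule gave 132 genes with a ratio of at most 0.35 and 59 with at most 0.25, 108 with TMM-scaled CPM, and between 76 and 89 with 1 library left out. The median ratio of the 84 genes at 30 min, 0.215, was 0.202 with TMM-scaled CPM, 0.196 with 0.1 CPM added and 0.239 with 1 CPM added. With 1 library left out it was between 0.209 and 0.221. At 60 min it was 0.213, and 0.185 with TMM-scaled CPM, 0.183 with 0.1 CPM added and 0.238 with 1 CPM added. The range at 60 min with 1 library left out was 0.190 to 0.217. For single genes at 60 min against 30 min, 1235 of 1259 repeats in 15 settings kept their side of the threshold, 15 lost a call and 9 gained one. The sign changed in 83 repeats of 38 genes, in none of which the gene was called, with or without the change, and 19 of these were without 30 min replicate 3. Scaled by library size alone, all tested genes had a median log2 value of 0.12 (30 min) and 0.28 (60 min) against before wounding, while TMM gave 0.02 and 0.06. The cause of these shifts was not tested. At 3 counts in a library a level is near the limit of detection, which touched 4 of the 84 genes.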
